A study of Saccharomyces cerevisiae with 68 samples.

Results

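The hexose kinase genes of budding yeast are HXK1 (YFR053C), HXK2 (YGL253W), GLK1 (YCL040W) and EMI2 (YDR516C). They were taken by their systematic names as 4 of the 6297 reading frames in the value table. All 4 had enough values to be tested in the heat-shock time courses, where 4360 genes were tested, and at 25C, where 5306 were. The strains were the laboratory strain DBY8268 of the S288c background, the sake strain K9, the vineyard strain M22, RM11-1a, which derives from a vineyard isolate and lacks LEU2 and URA3, and the oak isolate YPS163, each a single isolate. Some labels shorten RM11-1a to RM11a. Every strain was grown in log phase in rich glucose medium (YPD) at 25C, shifted to 37C by prewarmed medium and sampled at 5, 15, 30, 45, 60 and 120 min in 2 series. Each of these 60 2-colour arrays set heated RNA against RNA of the same strain at 25C. On 8 further arrays K9, M22, RM11-1a and YPS163 at 25C were set against DBY8268 at 25C, with 2 arrays of opposite dyes per strain.

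Hexokinases and glucokinases phosphorylate sugar that has entered the cell, the step that commits it to glycolysis, to the pentose phosphate pathway or to storage as glycogen and trehalose. Hxk1 and Hxk2 act on glucose and fructose, while the glucokinase Glk1 acts on glucose but not on fructose. Hxk2 is the main enzyme of cells growing on ample glucose and also takes part in glucose repression, the silencing of genes for other carbon sources. HXK1 and GLK1 are repressed by glucose and induced when glucose runs out and under stress, where the zinc finger activators Msn2 and Msn4 act on many genes. EMI2 is a paralog of GLK1 that was named for a role in the early induction of meiosis, and HXK1 and HXK2 are paralogs of each other.

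All values below are the deposited log ratios, taken as log2 of heated over 25C RNA or of a strain over DBY8268, so that 1 stands for a 2-fold difference. In bulk RNA, more RNA per cell and more cells that express a gene cannot be told apart. Of 240 possible values of the 4 genes in the time courses 229 were present, with 58 for HXK1, 59 for HXK2, 58 for GLK1 and 54 for EMI2. Arrays held 3418 to 6098 values in the time courses and 4587 to 5659 at 25C, and array medians lay between -0.17 and 0.28. Replicate arrays correlated across genes with r from 0.293 to 0.949 in the time courses, lowest in RM11-1a at 60 min, and from 0.798 to 0.846 at 25C. In YPS163 series 2 read higher than series 1 for HXK1, GLK1 and EMI2 at every time with both values. At 25C LEU2 and URA3 read -5.57 and -6.43 in RM11-1a on the 1 array that measured them.

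The first comparison asked how each gene changed on average over the 5 strains. The SE of such a mean comes from the spread between replicate arrays and not from that between strains. HXK1, GLK1 and EMI2 rose at all 6 times, most at 15 min, and HXK2 fell at 5 of 6 times, most at 30 min. Of the 4 genes, 3 passed the test at 5 min and 4 at each later time. Over all genes the share called was 67.3%, 78.1%, 67.3%, 54%, 46.9% and 51.6% at the successive times. With only 4 genes a count of those called says little beside these shares, so each gene is given by its size.

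HXK1 was above 0 on every array at every time. At 5 min the 10 arrays lay between 3.94 and 5.73 with a median of 5.10. At 15 min DBY8268 read 5.46 and 4.79, K9 6.01 and 5.62, M22 5.95 and 5.62, RM11-1a 5.14 and 5.07, and YPS163 5.82 and 5.85. DBY8268 and RM11-1a lay at the lower end and overlapped with each other, as did the 3 higher strains. The mean over strains was 5.55 (SE 0.19, 46.75-fold, adjusted p = 4.95e-23 in limma), rank 9 from the top among the 4360 genes. By 30 min the mean had come down to 3.65 (SE 0.21), and by 45 min to 2.46 (SE 0.22). The last 2 means were 2.39 (SE 0.19) and 2.79 (SE 0.19), and both ranked 3 from the top. The 60 min arrays lay between 1.63 and 3.02 and those of 120 min between 0.38 and 4.12, with the lowest of each in YPS163.

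HXK2 moved the other way and less. At 5 min its 10 arrays lay between -0.24 and 0.55, and the mean of 0.15 (SE 0.07) had an adjusted p of 0.0556. The 15 min arrays lay between -1.47 and 0.05 with a median of -0.59, those of 30 min between -1.88 and -0.41 with a median of -1.57, and those of 45 min between -1.26 and -0.01 with a median of -0.91. Every array was below 0 at 30, 45 and 60 min, and 9 of 10 were at 15 min. HXK2 fell by 0.73 at 15 min (SE 0.07, adjusted p = 2.61e-11) and by 1.38 at 30 min (SE 0.07, 2.60-fold, adjusted p = 4.19e-18), its lowest mean. The next means were -0.97 (SE 0.08), -0.80 (SE 0.07) and -0.52 (SE 0.07, adjusted p = 3.05e-07). The last was not a fall in every strain, as 8 of 10 arrays were below 0 at 120 min. Strain means then ran from -1.63 in RM11-1a to 0.43 in YPS163, with an SD between strains of 0.74. Among all genes HXK2 ranked 993 from the bottom at 15 min, 220 at 30 min and 96 at 45 min.

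GLK1 rose at all 6 times. At 15 min DBY8268 read 4.61 and 4.62, K9 4.36 and 3.60, M22 5.04 and 5.78, RM11-1a 3.67 and 3.35, and YPS163 4.75 and 5.89. RM11-1a and K9 held the low end and M22 and YPS163 the high end. The mean was 3.57 (SE 0.25) at 5 min and peaked at 4.63 at 15 min (SE 0.23, 24.7-fold, adjusted p = 5.40e-19), rank 16 from the top. By 30 min it was 3.43 (SE 0.25), and the last 3 means were 1.53 (SE 0.23), 0.94 (SE 0.23, adjusted p = 0.00102) and 1.46 (SE 0.23). At 60 min 2 of 10 arrays were below 0, the lowest at -0.77 in YPS163. GLK1 also carried the largest dye term of the 4 genes, a fitted difference between the dye orientations of -0.58 in the time courses and -0.59 at 25C. This term rests largely on YPS163, where the median gap of series 2 minus series 1 was 1.74. In DBY8268, M22 and RM11-1a it was -0.065, 0.16 and -0.05. At 25C the 2 arrays of YPS163 also lay furthest apart, at -2.51 and -0.54. Both series of K9 shared 1 dye orientation, so its fitted means were moved by the term. At 15 min its fitted mean was 4.27, from the arrays at 4.36 and 3.60.

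EMI2 had the smallest rise of the 3 induced genes. At 15 min DBY8268 read 2.57 and 2.43, K9 3.67 and 2.76, M22 3.8 and 3.86, RM11-1a 3.19 and 2.96, and YPS163 3.07 and 4.47. DBY8268 lay below all other arrays. The mean over strains was 2.90 (SE 0.17) at 5 min and 3.28 at 15 min (SE 0.14, 9.73-fold, adjusted p = 5.21e-19). By 30 min it was 1.11 (SE 0.17), and the last 3 means were 0.42 (SE 0.17, adjusted p = 0.0420), 0.54 (SE 0.14) and 0.93 (SE 0.14, adjusted p = 3.63e-06). EMI2 ranked 43 from the top at 15 min and 223 at 30 min. The call at 45 min is the least firm of these, since leaving out the strain M22 gave 0.40 (adjusted p = 0.158) and leaving out 1 series, which could be computed for 7 of 10, gave 0.32 to 0.56 (adjusted p up to 0.133).

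Strain by strain, HXK1 passed the test as higher in 30 of 30 strain and time pairs, GLK1 in 23 and EMI2 in 18. HXK2 passed as lower in 18 of 30 pairs and as higher in 1, YPS163 at 120 min. Over all genes 17.5% of such tests were called higher and 15.8% lower. The 7 pairs in which GLK1 was not called were at 45, 60 or 120 min. None of the 5 strains had a called HXK2 change at 5 min. The alternatives for these strain responses left out no whole strain. Over the alternatives that could be computed, called pairs ranged from 27 to 30 for HXK1, 15 to 20 for HXK2 in either direction, 19 to 25 for GLK1 and 15 to 20 for EMI2. HXK1 in YPS163 at 120 min was 0.23 (adjusted p = 0.538) without series 2, and at 60 min it missed the threshold without the array titled as a technical replicate (adjusted p = 0.148). In DBY8268 HXK1 was not called at 45, 60 or 120 min without series 1. HXK2 in YPS163 at 120 min, at 0.43 (adjusted p = 0.0409), was 0.25 (adjusted p = 0.499) without series 1 and was not called with no dye term (adjusted p = 0.106), with centred (0.167) or scaled (0.130) arrays, with series as a block (0.0636) or with that time fitted alone (0.102).

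**Figure D1:**
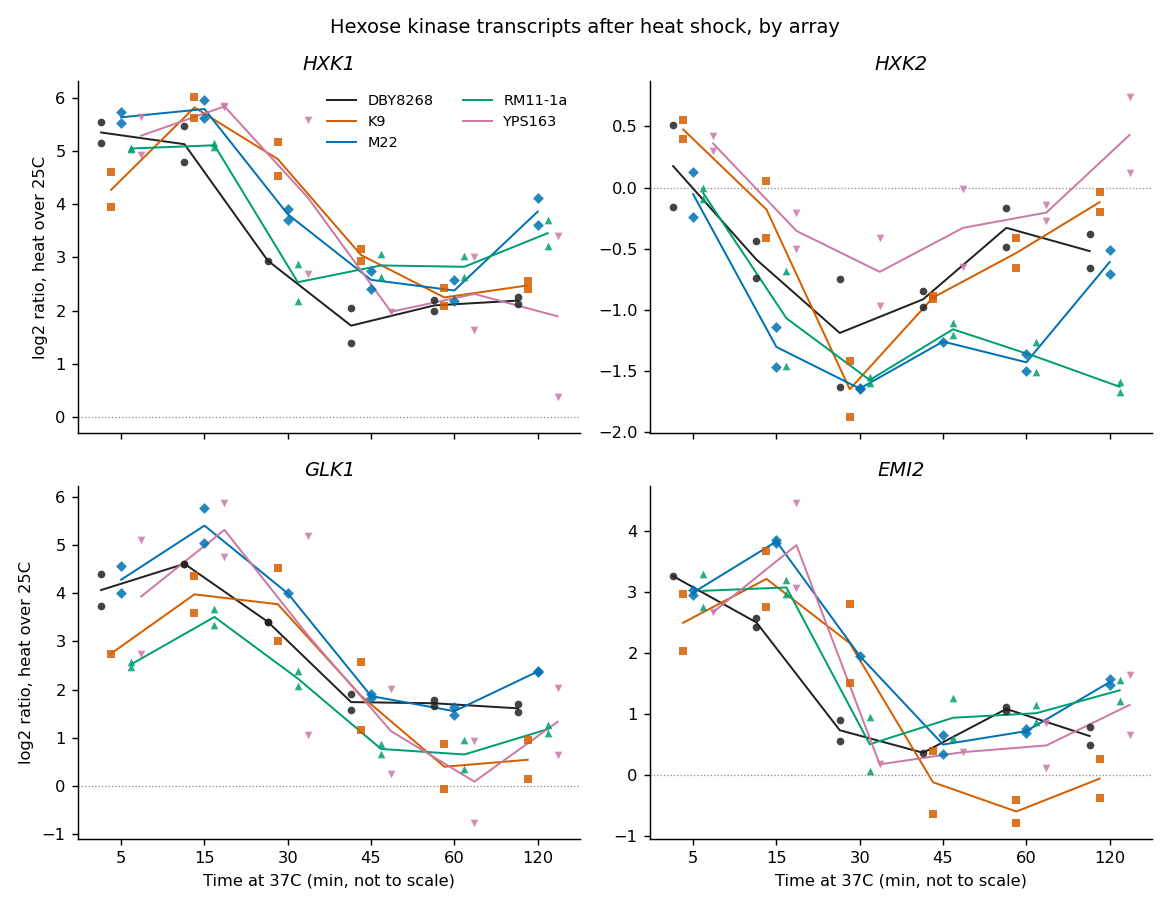
Log2 ratio of heated over 25C RNA (vertical axis) against time at 37C in min (horizontal axis, not to scale) for the 4 genes, where each point is 1 array, colours and marker shapes are strains and lines join the means of the arrays of a strain. HXK1, GLK1 and EMI2 had their highest fitted mean at 5 or 15 min in every strain while HXK2 had a mean of -1.38 at 30 min, and the vertical axes differ between panels.

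Times were compared within series, where all but 3 arrays (M22 at 30 and 45 min and RM11-1a at 30 min, each in series 2) name the 25C reference of their series. From 5 to 15 min GLK1 gained 1.13 (SE 0.15, adjusted p = 0.000169) and HXK1 0.42 (SE 0.12, adjusted p = 0.0128), while HXK2 fell by 0.88 (SE 0.10, adjusted p = 5.59e-05). The HXK1 gain was 0.14 (adjusted p = 0.300) without K9, and its adjusted p was 0.0873 with series as a random block and 0.216 with the array code as a block. EMI2 read 0.27 higher (SE 0.12, adjusted p = 0.103), and 47.6% of all genes were called in this step. From 15 to 30 min all 4 genes fell, where 49.3% of all genes were called and 16.2% were called lower. EMI2 fell by 2.03 (SE 0.12), HXK1 by 1.81 (SE 0.26), GLK1 by 1.18 (SE 0.26) and HXK2 by 0.65 (SE 0.10).

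From 30 to 45 min GLK1 fell by 1.83 (SE 0.21, adjusted p = 0.000209), HXK1 by 0.99 (SE 0.13) and EMI2 by 0.76 (SE 0.10), while HXK2 rose by 0.44 (SE 0.10, adjusted p = 0.00817). In this step 40% of all genes were called. Without K9 the EMI2 change was -0.38 (adjusted p = 0.0742) and that of HXK2 0.36 (adjusted p = 0.0542). From 45 to 60 min GLK1 alone of the 4 passed the test, with -0.60 (SE 0.09, adjusted p = 0.0136), where 2.9% of all genes did. This call ended without K9 (-0.38, adjusted p = 0.105), without M22 (adjusted p = 0.0540) or YPS163 (adjusted p = 0.105), and with series (adjusted p = 0.163) or array code (adjusted p = 0.533) as a block. From 60 to 120 min GLK1 rose by 0.53 (SE 0.07), EMI2 by 0.39 (SE 0.06) and HXK2 by 0.29 (SE 0.06), where 9.47% of all genes were called higher. None of these 3 rises passed with the array code as a block (adjusted p = 0.434, 0.453 and 0.132), and with series as a block GLK1 (adjusted p = 0.149) and EMI2 (adjusted p = 0.0833) did not. HXK2 also missed the threshold with scaled arrays (adjusted p = 0.0990), without K9 (0.0852), M22 (0.15, adjusted p = 0.277) or YPS163 (0.0786), and EMI2 without M22 (adjusted p = 0.0710). In this last step, where 11.6% were called in either direction, HXK1 differed by 0.40 (SE 0.14, adjusted p = 0.105). Between 15 and 120 min GLK1 lost 3.16 (SE 0.10), HXK1 2.76 (SE 0.23) and EMI2 2.35 (SE 0.08), and HXK2 read 0.21 higher (SE 0.10, adjusted p = 0.0969), where 63.7% of all genes were called.

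The shift from HXK2 towards the other kinases was described on each array as the log2 ratio of a gene minus that of HXK2. These differences say how the balance moved from its state at 25C and not which transcript was more abundant. HXK1 minus HXK2 had a mean over strains of 4.93 at 5 min and 6.23 at 15 min (SD of strain means 0.52, 75.2-fold), with arrays from 5.53 to 7.09 at 15 min. The later means were 5.09, 3.25, 3.15 and 3.27, with wider SDs of strain means of 0.92, 0.89, 0.81 and 1.48. At 120 min the strain means ran from 1.465 in YPS163 to 5.085 in RM11-1a. All measured arrays were above 0 up to 60 min, and 9 of 10 were at 120 min, the exception being YPS163 at -0.36.

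GLK1 minus HXK2 had successive means of 3.35, 5.27, 4.66, 2.40, 1.66 and 1.90, so that its lead was still close to the peak at 30 min and smallest at 60 min. EMI2 minus HXK2 had means of 2.65, 3.98 and 2.40 and then 1.21 to 1.41 from 45 min on. At 15 min M22 had the highest strain mean for all 3 differences, with 7.09, 6.71 (GLK1) and 5.13 (EMI2). At 120 min RM11-1a was highest for HXK1 at 5.09 and for EMI2 at 3.02, while K9 was lowest for GLK1 at 0.66 and for EMI2 at 0.06.

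**Figure D2:**
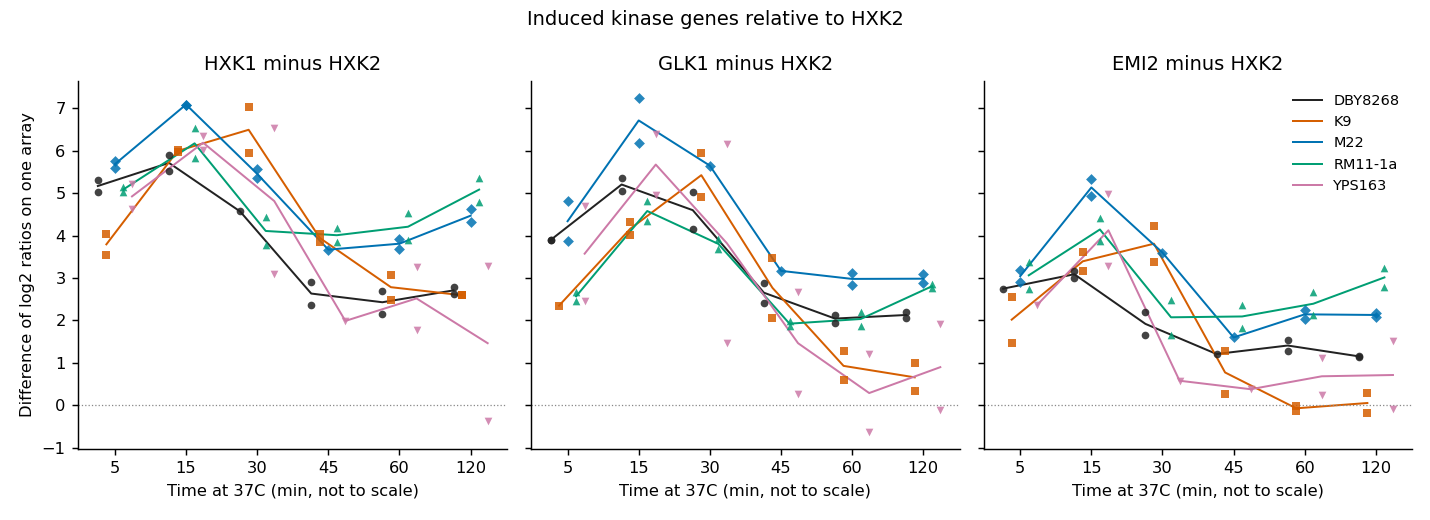
Difference between the log2 ratio of HXK1, GLK1 or EMI2 and that of HXK2 on the same array (vertical axis) against time at 37C in min (horizontal axis, not to scale), with 1 point per array and lines through strain means. The mean of HXK1 minus HXK2 peaked at 6.23 at 15 min and stayed at 3.15 or above, while EMI2 minus HXK2 came down to 1.21 at 45 min.

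The next comparison asked whether the strains differed in their response, by an F test over the 5 strain means at each time. HXK2 passed at 15 min (adjusted p = 0.00237), 30 min (adjusted p = 0.00153), 45 min (adjusted p = 0.0155), 60 min (adjusted p = 8.55e-05) and 120 min (adjusted p = 1.71e-06). At these 5 times the share of all genes called was 25.4%, 36.9%, 22%, 24% and 17.5%. Without YPS163 the tests at 30 min (adjusted p = 0.149) and 45 min (adjusted p = 0.562) no longer passed, while those at 60 min (adjusted p = 0.000976) and 120 min (adjusted p = 0.000356) did. At 5 min HXK2 had an adjusted p of 0.450, where 8.44% of all genes passed.

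At 120 min RM11-1a read -1.67 and -1.59, below every other HXK2 value. M22 read -0.51 and -0.71, DBY8268 -0.38 and -0.66, and K9 -0.04 and -0.20. YPS163 read 0.74 and 0.12, above every other array, the lower of them close to K9. RM11-1a lay 1.39 (SE 0.18, adjusted p = 6.32e-06) below the mean of the other 4 strains and YPS163 1.18 (SE 0.18, adjusted p = 2.52e-05) above it. These 2 results kept their call under all 19 alternatives run for them, with ranges of -1.59 to -1.17 and 1.00 to 1.37. None of these alternatives left out a whole strain, and each of the 2 strains is part of the mean the other is set against. Across genes the replicate arrays at 120 min correlated at r = 0.380 in RM11-1a and 0.441 in YPS163.

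At 60 min M22 at -1.36 and -1.50 and RM11-1a at -1.51 and -1.26 formed a low pair of strains. DBY8268 at -0.17 and -0.49, K9 at -0.41 and -0.66 and YPS163 at -0.14 and -0.27 did not overlap with them. M22 was 0.78 (SE 0.18, adjusted p = 0.00194) below the other 4 strains. RM11-1a was 0.73 below (adjusted p = 0.0225), which without its series 1 became -0.42 (adjusted p = 0.688). YPS163 was 0.75 above (adjusted p = 0.00638), which without its series 2 became 0.69 (adjusted p = 0.0667).

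At 15 min M22 (-1.14 and -1.47) was 0.72 below the other 4 strains (adjusted p = 0.00478), and without its series 2 the value was -0.70 (adjusted p = 0.160). RM11-1a at -0.68 and -1.46 overlapped with it. At 30 min K9, M22 and RM11-1a lay between -1.88 and -1.42 and DBY8268 at -0.75 and -1.63, while YPS163 stood at -0.41 and -0.97. YPS163 was 0.86 above the other 4 strains at 30 min (adjusted p = 0.00270) and 0.80 above at 45 min (adjusted p = 0.00517). Without its series 1 these became 0.70 (adjusted p = 0.0749) and 0.60 (adjusted p = 0.134). In all, 8 of 30 such contrasts were called for HXK2, 4 higher and 4 lower, and 6.61% of all tests of this kind were called over all genes. None was called for HXK1 or GLK1, and for EMI2 1 was higher and 1 lower. The calls follow the precision as well as the size of strain differences. At 30 min the SD between strain means was 0.44 for HXK2, 0.96 for HXK1 and 0.82 for GLK1. At 60 min it was 0.58, 0.27 and 0.68. The SE of the YPS163 mean at 30 min was 0.16, 0.43 and 0.51 for these genes. The 5 contrasts of a time share arrays. Neither DBY8268 nor K9 passed for HXK2 at any time.

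**Figure D3:**
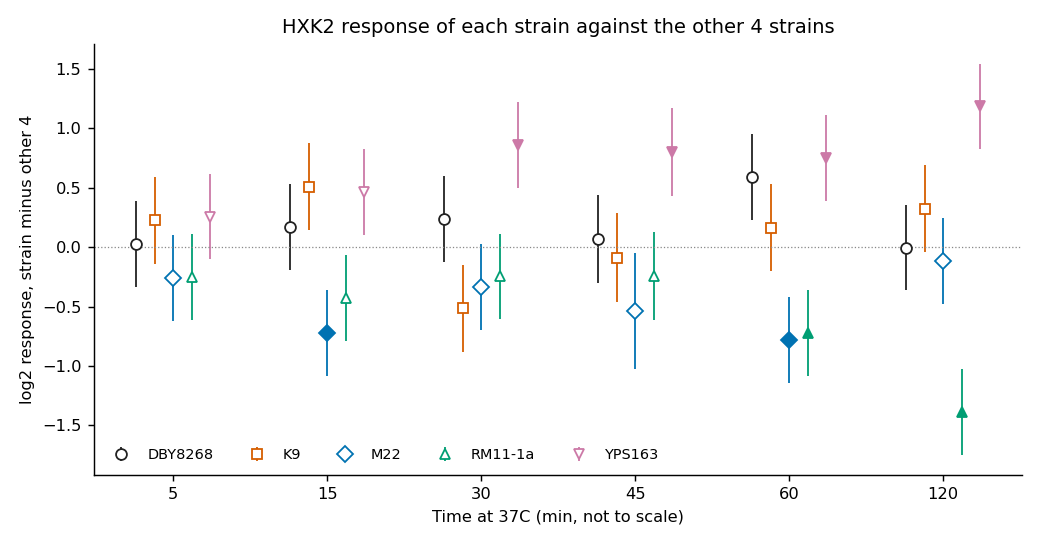
HXK2 response of each strain minus the mean of the other 4 strains (vertical axis, log2, with 95% confidence intervals of the fit) against time at 37C in min (horizontal axis, not to scale), where filled markers passed the test. YPS163 reached 1.18 and RM11-1a -1.39 at 120 min, and no strain passed at 5 min.

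For HXK1 and GLK1 strain differences passed at more times when YPS163, whose 2 series disagreed, was left out. HXK1 in YPS163 read 2.68 and 5.57 at 30 min and 0.38 and 3.41 at 120 min, and GLK1 read 1.06 and 5.20 at 30 min. Series 2 was the higher at all 6 times for GLK1, by 1.14 to 4.14, at all 5 times with both values for HXK1, by 0.03 to 3.03, and at all 3 such times for EMI2, by 0.74 to 1.40. Over all strains the median gap between replicates was 0.39 for HXK1, 0.58 for GLK1, 0.36 for EMI2 and 0.25 for HXK2. The dye orientation differed between these series, as it did in DBY8268, M22 and RM11-1a, where GLK1 gaps lay between -0.68 and 0.74. The part of the dye in the gap of YPS163 was not tested.

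With all strains, HXK1 differed between strains at 30 min (adjusted p = 0.0227), which ended without K9 (adjusted p = 0.169) or without RM11-1a (adjusted p = 0.144), and at 120 min had an adjusted p of 0.0654. Without YPS163 it differed at 5 min (adjusted p = 0.000928), 30 min (adjusted p = 2.74e-06), 45 min (adjusted p = 0.00305) and 120 min (adjusted p = 2.29e-05). At 120 min M22 read 4.12 and 3.60 and RM11-1a 3.70 and 3.21, above K9 at 2.55 and 2.40 and DBY8268 at 2.25 and 2.13, with no overlap. At 30 min K9 read 4.53 and 5.16, above M22 at 3.91 and 3.71, RM11-1a at 2.88 and 2.19 and the 1 array of DBY8268 at 2.94. At 5 min K9 was the lowest strain, at 3.94 and 4.60, with all other arrays at 4.93 or above.

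GLK1 passed the F test over 5 strains at no time, with adjusted p from 0.163 to 0.484. Without YPS163 it passed at 5 min (adjusted p = 0.0101), 15 min (adjusted p = 0.00656), 30 min (adjusted p = 0.0121), 60 min (adjusted p = 0.0480) and 120 min (adjusted p = 0.0206). Over all genes the number called in that fit rose from 368 to 582 at 5 min, 1107 to 1287 at 15 min and 1608 to 1747 at 30 min. At 5 min RM11-1a read 2.47 and 2.58 and the 1 array of K9 2.75, below DBY8268 at 4.41 and 3.73 and M22 at 4.00 and 4.57. At 120 min M22 read 2.37 and 2.38, DBY8268 1.69 and 1.53, RM11-1a 1.09 and 1.26 and K9 0.95 and 0.13, so that these 4 strains did not overlap.

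EMI2 differed between strains at 30 min (adjusted p = 0.00692) and 60 min (adjusted p = 0.0338). The test at 60 min no longer passed without DBY8268 (adjusted p = 0.0851), K9 (0.508), M22 (0.103) or RM11-1a (0.0586). At 30 min K9 read 2.81 and 1.51, M22 1.95 on 1 array, DBY8268 0.90 and 0.56, RM11-1a 0.94 and 0.06 and YPS163 0.17 on 1 array. M22 thus lay between the 2 arrays of K9. K9 was 1.33 (SE 0.37, adjusted p = 0.0277) above the other 4 strains, which without its series 1 became 0.68 (adjusted p = 0.490). At 60 min K9 read -0.42 and -0.79 while every other array was above 0, and it was 1.41 (SE 0.36, adjusted p = 0.0284) below the other 4. Without its series 1 or 2 this was -1.59 (adjusted p = 0.0574) or -1.22 (adjusted p = 0.215). Series 1 of K9 was the higher for EMI2 at all 6 times, by 0.37 to 1.30, although both series of K9 had the same dye orientation.

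Changes between times also differed between strains in a few steps. From 30 to 45 min EMI2 did (adjusted p = 0.0301), where 0.589% of all genes passed. The call ended with scaled arrays (adjusted p = 0.0643), without the 3 arrays of another reference (0.141), without K9 (0.208) or either of its series (0.1197 and 0.1513) and without RM11-1a (0.107). Its drop was from 2.81 to 0.39 and from 1.51 to -0.64 in the 2 series of K9, while RM11-1a went from 0.94 to 1.26 and from 0.06 to 0.61, the latter across 2 references. From 60 to 120 min HXK2 (adjusted p = 0.0490), GLK1 (adjusted p = 0.0390) and EMI2 (adjusted p = 0.0403) passed, where 3.06% of all genes did. None of these 3 passed without YPS163, at adjusted p of 0.0609 for HXK2, 0.153 for GLK1 and 0.0680 for EMI2, nor did any without DBY8268 or without M22.

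At 25C the question was how much kinase RNA the other strains held before heat, relative to DBY8268, which is the reference on every array, so that its own spread is left out. K9 had less HXK1, with -2.06 and -2.19 on its 2 arrays and a mean of -2.13 (SE 0.17, 4.36-fold lower, adjusted p = 0.00177). RM11-1a had more, with 0.69 and 0.91 and a mean of 0.80 (SE 0.17, adjusted p = 0.0370). For M22 and YPS163 only array 2 measured HXK1, at -1.26 and -0.54, so each is assumed to vary like the strains with 2 arrays. The fitted values were -1.28 (SE 0.27, adjusted p = 0.0272) in M22 and -0.56 (SE 0.27, adjusted p = 0.200) in YPS163. Without its array 2 the value of K9 was -1.95 (adjusted p = 0.0535), and leaving out 1 array at a time took the adjusted p of RM11-1a up to 0.228. The M22 call ended without array 1 of K9 (adjusted p = 0.0520) or of RM11-1a (adjusted p = 0.0507).

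HXK2 had the smallest span of fitted strain means at 25C. K9 read -0.77 and -0.51 and was called lower at -0.64 (SE 0.17, adjusted p = 0.0444), which without its array 1 became -0.42 (adjusted p = 0.524) and with arrays centred on their medians missed the threshold (adjusted p = 0.0513). M22 read -0.03 and -0.20, RM11-1a 0.30 and -0.13, and YPS163 -0.42 and -0.37. Their 95% intervals were -0.50 to 0.27, -0.30 to 0.47 and -0.78 to -0.01, and none of the 3 passed.

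GLK1 and EMI2 were both lower in M22 and YPS163. M22 read -1.39 and -1.23 for GLK1 (mean -1.31, SE 0.35, adjusted p = 0.0371) and -1.31 and -1.07 for EMI2 (mean -1.19, SE 0.16, adjusted p = 0.00284). YPS163 read -2.51 and -0.54 for GLK1 (mean -1.52, SE 0.35, adjusted p = 0.0240) and -1.53 and -0.73 for EMI2 (mean -1.13, SE 0.16, adjusted p = 0.00326). The GLK1 value of YPS163 rests on array 1, as it was -0.61 (adjusted p = 0.337) without it, and the EMI2 value was -0.97 (adjusted p = 0.0784). The GLK1 value of M22 became -1.60 (adjusted p = 0.139) without array 1 and -1.02 (adjusted p = 0.268) without array 2. K9 read 0.67 and 1.29 for GLK1 (adjusted p = 0.125) and RM11-1a 0.91 and 0.52 (adjusted p = 0.239), above 0 on all 4 arrays but not past the threshold. For EMI2 K9 read -0.06 and 0.67 and RM11-1a 0.00 and 0.46.

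Of the 4 kinase genes, 2 were called in K9, where 13.9% of all genes were, 3 in M22 against 23.2%, HXK1 among them from 1 array, 1 in RM11-1a against 14.4% and 2 in YPS163 against 20.7%. The F test over the 4 strains at 25C passed for HXK1 (adjusted p = 0.00783), EMI2 (adjusted p = 0.00789) and GLK1 (adjusted p = 0.0301), where 10.8% of all genes passed, and leaving out single arrays took GLK1 up to 0.0689. HXK2 had an adjusted p of 0.201. As a mean over the 4 strains HXK1 was -0.79 (adjusted p = 0.00559), EMI2 -0.45 (adjusted p = 0.00439) and HXK2 -0.27 (adjusted p = 0.0387). These 3 means lay below DBY8268, where 40.9% of all genes were called, and GLK1 was -0.29 (adjusted p = 0.235). Single strains went both ways, with HXK1 at -2.13 in K9 and 0.80 in RM11-1a and EMI2 at -1.19 in M22 and 0.305 in K9. The p values of these means rest on the spread between arrays and not on that between strains. Leaving out single arrays took the adjusted p of the HXK2 mean up to 0.163. The strain order at 25C was K9, M22, YPS163, RM11-1a from low to high for HXK1, where the 95% intervals of K9 and M22 overlap, as do those of M22 and YPS163. For GLK1 it was YPS163, M22, RM11-1a, K9, and there the intervals of YPS163 and M22 overlap, as do those of RM11-1a and K9.

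**Figure D4:**
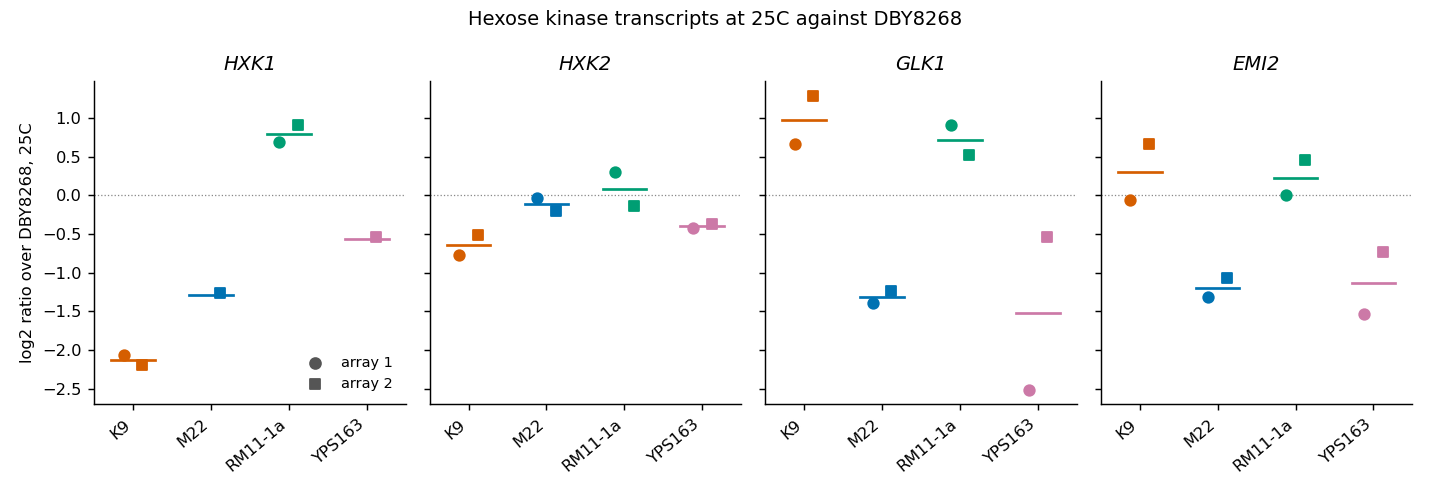
Log2 ratio of each strain over DBY8268 at 25C (vertical axis) for the 4 genes, where circles and squares are the 2 arrays of opposite dyes and lines are the fitted means. HXK1 ran from -2.13 in K9 to 0.80 in RM11-1a, and the 2 arrays of YPS163 for GLK1 lay at -2.51 and -0.54.

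A response is relative to the level of its own strain at 25C, so the fitted 25C value and the fitted response were added to set all strains on the scale of DBY8268 at 25C. The sum joins 2 sets of arrays and is given without a test. For HXK1 the strains spread over 0.78 in response at 15 min and over 2.15 in summed level, from 3.76 (SE 0.47) in K9 to 5.91 (SE 0.46) in RM11-1a. At 120 min the summed level ran from 0.42 (SE 0.47) in K9 to 4.26 (SE 0.46) in RM11-1a, with DBY8268 at 2.19 (SE 0.43). At 30 min the HXK1 response spread over 2.38 and the summed level over 1.03. GLK1 at 15 min had a spread of 1.90 in response and 1.46 in summed level, between 3.795 (SE 0.62) in YPS163 and 5.25 (SE 0.63) in K9. At 30 to 120 min its summed level spread more widely than its response, by 3.44 against 2.06 at 30 min and 2.08 against 1.54 at 120 min. At 60 min GLK1 in YPS163 was at -1.44 (SE 0.62), against 1.72 (SE 0.51) in DBY8268. YPS163 had the lowest summed GLK1 level at every time, so these spreads depend on its arrays, which disagreed. Its 25C value comes from -2.51 and -0.54 and was -0.605 without array 1. Its 60 min response comes from -0.77 and 0.94.

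HXK2 in K9 reached the lowest summed level of the gene, -2.43 (SE 0.23) at 30 min. In YPS163 HXK2 was at 0.03 (SE 0.23) at 120 min, against -0.395 at 25C. RM11-1a was at -1.54 (SE 0.23) at 120 min, against 0.085 at 25C. EMI2 at 30 min ran from -0.94 (SE 0.48) in YPS163, where it rests on 1 array, to 2.48 (SE 0.36) in K9.

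**Figure D5:**
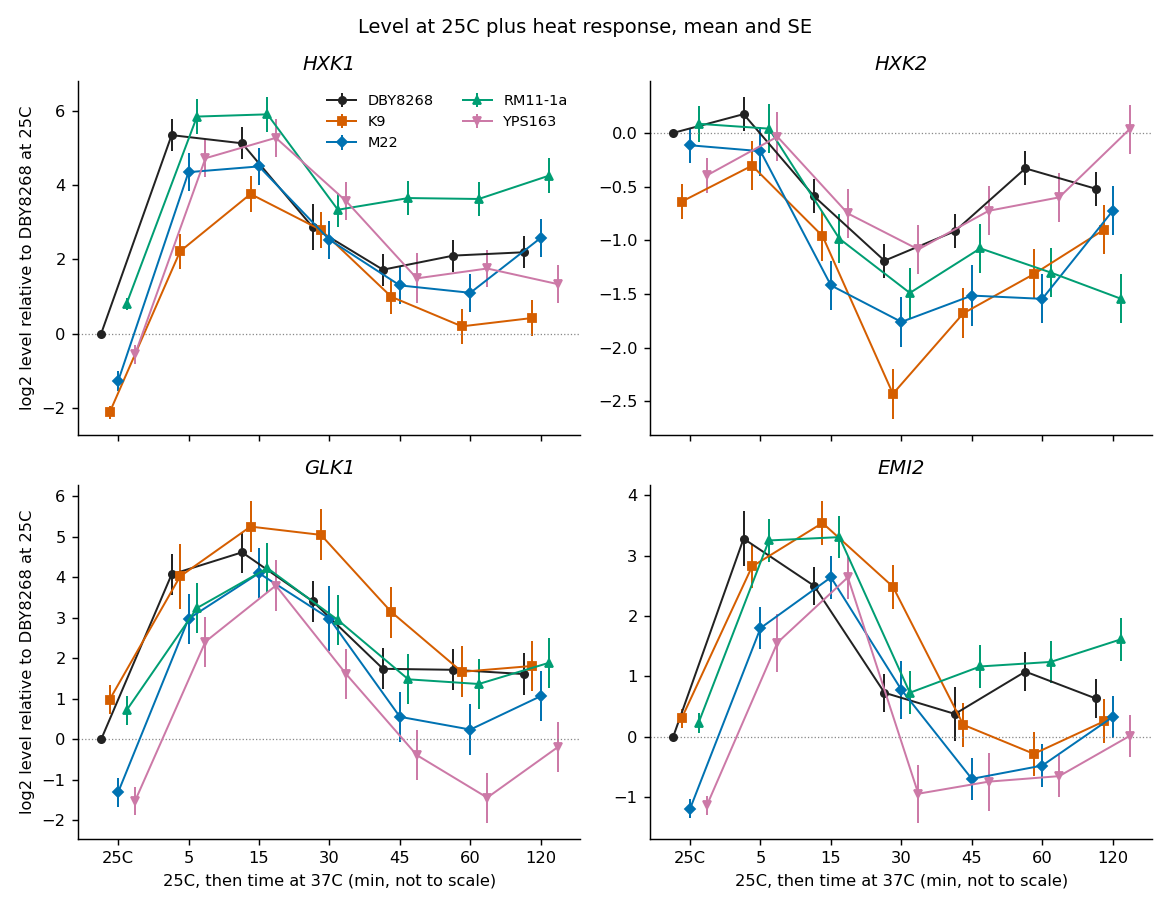
Level on the log2 scale relative to DBY8268 at 25C (vertical axis), as the 25C value of a strain plus its heat response, at 25C and then by time at 37C in min (horizontal axis, not to scale), with bars of 1 SE and lines joining the times of a strain. HXK1 in K9 was at -2.125 at 25C and 0.42 at 120 min, while RM11-1a was at 0.80 and 4.26.

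Genes upstream and downstream of the kinases were taken as lists, and their counts stand beside 78.1% of all genes called at 15 min and 67.3% at 30 min. Of 7 hexose transporter genes, which bring glucose into the cell, 6 were tested and at 15 min 2 rose and 3 fell (median -0.11, against -0.01 over all 4360 genes). HXT1, a low-affinity transporter, fell by 1.87 (SE 0.15) and HXT4 by 1.25 (SE 0.18), while the high-affinity HXT7 rose by 1.06 (SE 0.15) and HXT6 by 1.098 (SE 0.20). HXT6 and HXT7 are nearly identical in sequence, and cross-hybridisation between them was not tested. At 30 min 4 of the 6 fell and none rose.

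A list of 15 genes covered products that use or make glucose 6-phosphate or fructose 6-phosphate, or that act later in glycogen and trehalose synthesis. Of these 11 were tested, and at 15 min 7 rose and 4 fell (median 1.38), where 78.1% of all genes were called. Among the genes named next, TPS2 and GSY2 act in the later steps. The trehalose genes TPS1 and TPS2 rose by 4.00 (SE 0.12) and 3.54 (SE 0.09), the glycogen synthase gene GSY2 by 3.14 (SE 0.15) and FBP26, for fructose 2,6-bisphosphatase, by 2.25 (SE 0.10). The 4 that fell at 15 min were the phosphoglucomutase gene PGM1 at -0.70, the phosphofructokinase genes PFK1 at -0.81 and PFK2 at -0.44, and the isomerase gene PGI1 at -0.33, named here after their values were seen.

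Of 22 genes of glucose repression and sensing 18 were tested, and at 15 min 8 rose and 4 fell (median 0.11). These counts and those of the next 2 lists stand beside the 78.1% of all genes called at 15 min. REG1, a regulatory subunit of the phosphatase Glc7, rose by 0.54 (SE 0.07), GAL83, a subunit of the Snf1 kinase, by 0.68 (SE 0.09) and the glucose sensor gene SNF3 by 0.67 (SE 0.09), while the corepressor gene TUP1 fell by 0.62 (SE 0.09). Of 6 other carbohydrate kinase genes 2 were tested and both rose, XKS1 for xylulokinase by 2.41 (SE 0.13) and DAK1 for dihydroxyacetone kinase by 1.49 (SE 0.08). Of 4 stress regulator genes 3 rose at 15 min, with HSF1 at 1.25 (SE 0.09), MSN2 at 0.58 (SE 0.08) and MSN4 at 0.38 (SE 0.07), while HAC1 read -0.27 (SE 0.76, adjusted p = 0.756). At 25C the hexose transporter genes called higher were 4 of 7 for K9, 5 for M22, 4 for RM11-1a and 1 for YPS163. Over all genes 13.9%, 23.2%, 14.4% and 20.7% were called in these strains, which counts both directions. In YPS163 HXT1 was called lower at -0.81 (adjusted p = 0.0176). The 4 of K9 were not the 4 of RM11-1a, and the list was led by HXT4 at 3.16 (SE 0.46) in K9 and HXT1 at 2.44 (SE 0.17) in K9.

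Across the 30 group means of strain and time, which share strains and references, HXK1 and EMI2 had a Pearson r of 0.892, HXK1 and GLK1 of 0.857, and GLK1 and EMI2 of 0.802. With HXK2 the r was 0.176 for HXK1, 0.043 for GLK1 and 0.241 for EMI2. Among all 4360 genes the 3 most like HXK1 were LSP1, an eisosome component (r = 0.949), TPS2 (r = 0.929) and the disaggregase gene HSP104 (r = 0.929). Those most like EMI2 were the mitochondrial chaperone gene HSP78 (r = 0.938), TPS2 (r = 0.937) and YGR130C (r = 0.932).

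HXK2 was most like DPS1, the cytoplasmic aspartyl-tRNA synthetase gene (r = 0.870), SCS7, a sphingolipid hydroxylase gene (r = 0.861), and ARO8, an aromatic aminotransferase gene (r = 0.801). These 3 fell by 0.54, 0.59 and 0.83 at 15 min. GLK1 was most like YCL042W (r = 0.950), ADP1, which encodes a putative ABC transporter (r = 0.938), and the neutral trehalase gene NTH1 (r = 0.938). YCL042W overlaps GLK1 in the RefSeq annotation R64, rose by 4.27 (SE 0.34) at 15 min, and whether the 2 share signal was not tested. No other kinase gene overlaps an annotated gene there. Whether probes of HXK1 and HXK2, or of GLK1 and EMI2, cross-hybridise was not tested.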

How the data were processed

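The authors deposited log ratios per reading frame and array, taken here as log2. The base, normalization, centring and software are not given in the sources used here. Per the labels' protocols, RNA was extracted with hot phenol and labelled indirectly with Oyster cyanine dyes. Values were used as deposited. They already point one way, since replicates of opposite dyes correlated positively in all 28 such groups. Known losses gave the direction of the 25C ratios: LEU2 and URA3 of RM11-1a, and the ASP3 genes of S288c, at -4.71 to -7.62 in the other 4 strains.

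Least-squares fits per gene were moderated with limma 3.58.1 (R 4.3.3, statmod 1.5.0). They covered the 60 heat-shock arrays (30 group means, dye orientation as covariate), differences between times within a series, and the 8 arrays at 25C (1 mean for each of 4 strains, dye orientation as covariate). Genes needed 1 value per group, or values on 6 arrays at 25C. Adjusted p values are Benjamini-Hochberg values over all genes of a comparison, with a threshold of 0.05, and the code was tested on simulated data. At 25C the numbers 1 and 2 in the titles equal the dye orientation, which is thus also the replicate block. Deviations of same-numbered arrays there correlated at -0.05 to 0.31 over 6 pairs.

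Each group had n = 2. Whether replicates were separate cultures is unclear from the labels, and the p values cover only the spread among these samples, which can be technical. Equal values made up 0.431% to 1.68% of genes between replicates, so none was a copy. In 3 arrays the title names another 25C reference, and 1 YPS163 array at 60 min is titled a technical repeat. The number of arrays limits the precision. RefSeq R64 gave symbols for 5832 of 6297 reading frames. Named genes were the 4 kinases, up to 4 per list by smallest p at 15 min or, among those passing, at 25C, the 3 most correlated genes per kinase, and the genes that gave the direction. The kinase genes and lists were chosen with earlier results of these data known. Alternatives covered the dye covariate, scaling, array codes, blocks, filters, and leaving out series, strains and arrays.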

Additional observations from a re-analysis of the deposited data

Results flagged for a closer look

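Strains differed by the F test over strain means in 15 results. The HXK2 response differed at 15 min (adjusted p = 0.00237), 30 min (adjusted p = 0.00153), 45 min (adjusted p = 0.0155), 60 min (adjusted p = 8.55e-05) and 120 min (adjusted p = 1.71e-06). The HXK1 response differed at 30 min (adjusted p = 0.0227) and the EMI2 response at 30 min (adjusted p = 0.00692) and 60 min (adjusted p = 0.0338). The change from 30 to 45 min differed for EMI2 (adjusted p = 0.0301), and that from 60 to 120 min for HXK2 (adjusted p = 0.0490), GLK1 (adjusted p = 0.0390) and EMI2 (adjusted p = 0.0403). At 25C the strains differed in HXK1 (adjusted p = 0.00783), GLK1 (adjusted p = 0.0301) and EMI2 (adjusted p = 0.00789). All are limma tests with Benjamini-Hochberg adjustment.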

How the results depend on the processing

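The mean responses of HXK1 and GLK1 kept direction and call under every alternative that could be computed, as did those of HXK2 from 15 min on. For F tests the values below are adjusted p. The cause of each change was not tested, except that leaving out arrays or fitting each time alone uses fewer samples. A filter of at least 2 values in each group kept 974 genes and none of the 4 in the fit over 60 arrays, so it gave no value there. In the fits of changes within series it gave values for some of the 4, with 1 call gained, the EMI2 strain difference in the change from 15 to 120 min (0.03102). At 25C, the fit with no replicate block and no dye term changed no call of HXK1, HXK2, GLK1 or EMI2.

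The EMI2 mean at 45 min was 0.3203 with arrays centred, 0.3685 with the array code prefix as a covariate, 0.356 with each time fitted alone with or without the filter, and 0.4075 without the 3 arrays of another reference. It was 0.4462 without DBY8268, 0.3974 without M22 and 0.3544 without RM11-1a. Without DBY8268 the EMI2 mean at 60 min was 0.4138, and its change from 45 to 60 min turned to -0.1113. The HXK2 mean at 5 min passed at 0.2038 without M22 and 0.1966 without RM11-1a. The blocks ended the calls of HXK1 from 5 to 15 min, GLK1 from 45 to 60 min, GLK1 and EMI2 from 60 to 120 min and, with the array code but not with series, HXK2 from 60 to 120 min. The HXK2 change from 15 to 120 min passed at 0.21 with series as a block, 0.2213 with the array code as a block and 0.4025 without RM11-1a.

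HXK2 strain differences lost their call at 45 min with no dye term (0.1207), with centring (0.05981), without M22 (0.07637) and without YPS163 (0.5621). With each time fitted alone they were 0.169, 0.1691 and 0.193 at 15, 30 and 45 min, and 0.193, 0.1771 and 0.2209 with no further filter. At 15 min they were 0.09805 without M22 and at 30 min 0.1492 without YPS163. HXK1 at 30 min was 0.06388 with scaling, 0.2415 and 0.2431 with each time alone, 0.1519 without the 3 arrays, 0.1685 without K9 and 0.1436 without RM11-1a. EMI2 at 30 min was 0.06843 with scaling and 0.185 and 0.1836 with each time alone. EMI2 at 60 min was 0.08509, 0.5085, 0.1033 and 0.05863 without DBY8268, K9, M22 and RM11-1a.

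Other strain differences gained a call. EMI2 passed at 15 min (0.03545) and 120 min (0.02086) and HXK1 at 120 min (0.04042) with series as a block, EMI2 at 120 min with no dye term (0.04869), and EMI2 at 15 min without K9 (0.02783). Without YPS163, HXK1 passed at 5, 45 and 120 min (0.0009284, 0.003045 and 2.292e-05), GLK1 at 5, 15, 30, 60 and 120 min (0.01008, 0.006556, 0.01213, 0.04805 and 0.02062) and EMI2 at 120 min (0.01037). Calls over all genes also rose in that fit, from 368 to 582, 1107 to 1287 and 1608 to 1747 at 5, 15 and 30 min.

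Leaving out 1 series at a time, where it could be computed, gave 0.115 to 0.2038 for the HXK2 mean at 5 min, 0.3155 to 0.5567 for the EMI2 mean at 45 min, -0.005 to 0.127 for the EMI2 change from 45 to 60 min and 0.124 to 0.296 for the HXK2 change from 15 to 120 min. Strain differences ranged for HXK1 from 0.001115 to 0.8869 at 5 min, 7.91e-07 to 0.1237 at 30 min, 0.001629 to 0.5275 at 45 min, 0.01255 to 0.9911 at 60 min and 9.991e-09 to 0.3411 at 120 min. For GLK1 they ranged from 0.002422 to 0.7132, 0.001664 to 0.5629, 0.00027 to 0.4847, 0.02898 to 0.7241, 0.00342 to 0.5806 and 0.01434 to 0.6393 over the 6 times. HXK2 at 45 min ranged from 0.01077 to 0.2104, and EMI2 from 0.03254 to 0.3635 at 15 min, 0.005256 to 0.1065 at 60 min and 0.01133 to 0.1584 at 120 min.

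At 25C, K9 was -0.64 for HXK2 with centring (adjusted p = 0.0513) and M22 -1.15 for GLK1 with scaling. Leaving out 1 array at a time gave -0.8617 to -0.4183 for HXK2 in K9, -0.1533 to 0.3233 for HXK2 in RM11-1a, -2.3 to -1.95 for HXK1 in K9, -1.37 to -1.195 for HXK1 in M22 and 0.625 to 0.975 for HXK1 in RM11-1a. GLK1 of K9 gave 0.96 to 1, that of M22 -1.5967 to -1.0233, and that of YPS163 -2.445 to -0.605, with 0.002557 to 0.06889 for the strain difference. EMI2 of YPS163 gave -1.2917 to -0.9683. Counts over all genes called moved from 139 to 3 for the change from 45 to 60 min without M22, from 586 to 118 for that from 60 to 120 min with the array code as a block, from 1107 to 29 and 1608 to 162 for strain differences at 15 and 30 min with each time fitted alone, and from 738 to 181 for K9 at 25C without its array 2.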
